A study of Bos taurus with 6 samples.

Results

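The miR-26 miRNAs were followed here in the extracellular vesicles (EVs) of bovine serum, membrane-enclosed particles that cells release and that carry miRNAs through the blood. Of 3 miRNAs chosen by name, bta-miR-26a and bta-miR-26b were measured, 2 of the 359 known miRNAs and of the 706 miRNAs in all, and bta-miR-26c was not analysed here. Blood was drawn on day 30 of the feeding period from 6 female Holstein cows in mid lactation (101 ± 10 days in milk, the mean and spread given for the cows), and 1 small RNA library was made per cow. Diet set the groups of 3 cows apart. Control cows ate a total mixed ration (TMR). For tested cows, some of its alfalfa hay gave way to whole cotton seed and soybean hull. The ages of the cows are not given in the sources used here. Counts on known miRNAs ranged from 1226928 to 2088249 per library. Serum collects vesicles from many tissues, so that fewer releasing cells and less miRNA per vesicle cannot be told apart in these libraries.

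A miRNA is a short RNA that is cut from a hairpin precursor and guides a silencing complex to messenger RNAs, mainly through its seed, the stretch of bases 2 to 8 that pairs with the target. In mammals the miR-26 miRNAs are expressed in most tissues and are known for restraining cell growth, in part by repressing EZH2, the enzyme that places the repressive mark on lysine 27 of histone H3. They lie in introns of genes of the CTDSP family, which encode small phosphatases acting on the tail of RNA polymerase II.

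The listed mature sequences are shown because the seed is what makes the miRNAs a family. They are written 5′ to 3′ with T for U, as in the deposited table, with the seed in capitals.
bta-miR-26a: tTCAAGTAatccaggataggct
bta-miR-26b: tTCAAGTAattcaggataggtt
Both are 22 nt long and were identical at 20 of 22 positions, with the seed TCAAGTA in common. Counted from 1 at the 5′ end, the differences from bta-miR-26a to bta-miR-26b were C11T and C21T, both outside the seed, and they are in capitals in the second pair.
bta-miR-26a: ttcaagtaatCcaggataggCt
bta-miR-26b: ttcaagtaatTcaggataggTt
With so few differences, a counting step that tolerates mismatches could pass reads of one member to the other, and the tolerance used is not given in the sources used here. No further sequence among the 706 had the same seed, held these 7 bases anywhere, or shared a run of 12 bases with a member on either strand. The closest other sequence was 8 edits away from bta-miR-26a and 7 edits away from bta-miR-26b.

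RefSeq annotates the miR-26 genes on assembly ARS-UCD2.0, whereas the reads were matched to ARS-UCD1.2. There, 2 genes give rise to bta-miR-26a. MIR26A-1 lies within CTDSPL on chromosome 22 and MIR26A-2 within CTDSP2 on chromosome 5. MIR26B lies within CTDSP1 on chromosome 2. MIR26C is annotated on the same interval as MIR26A-1. The count table has a single row for the mature bta-miR-26a, so its counts cannot be divided between the 2 genes.

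bta-miR-26a was the leading miRNA of every library and was not called different between the diets, and bta-miR-26b followed it at 2.98% of the counts that the pair held together, on average. The share of bta-miR-26a in the known miRNA counts was 15.0%, 14.1% and 15.8% in control cows 1, 2 and 3, from 230707, 282534 and 314623 counts. In tested cows 1, 2 and 3 it was 15.4%, 17.0% and 15.8%, from 188649, 319308 and 330429 counts. The lowest share was that of control cow 2 and the highest that of tested cow 2, and the groups overlapped, because control cow 3 lay above tested cow 1. Counting error was small at this depth, with a 95% Wilson interval of 14.0% to 14.1% in control cow 2 and of 16.9% to 17.0% in tested cow 2. Such intervals cover counting error only, since PCR copies of one molecule are counted more than once. Averages were 15.0% ± 0.872 (SD, n = 3) in control and 16.1% ± 0.833 (SD, n = 3) in tested cows, a difference of 1.10 percentage points (two-sided exact permutation test, p = 0.2). With 3 cows in each group this test cannot give a p below 0.1. The difference was 0.655 points without control cow 2, 0.640 without tested cow 2 and 1.53 without control cow 3.

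The share of bta-miR-26b was 0.427%, 0.440% and 0.538% in control cows 1, 2 and 3, from 6557, 8842 and 10704 counts. It was 0.430%, 0.552% and 0.476% in tested cows 1, 2 and 3, from 5281, 10367 and 9933 counts. Control cow 3 and tested cow 2 were high and the first cow of either group was low, so that the groups overlapped over nearly their whole range. Control cows averaged 0.468% ± 0.0607 (SD, n = 3) and tested cows 0.486% ± 0.0612 (SD, n = 3), values that differ by less than the spread between cows (two-sided exact permutation test, p = 0.6). Its rank among the known miRNAs ran from 27 to 34 over the 6 libraries, against rank 1 for bta-miR-26a in each of them.

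**Figure D1:**
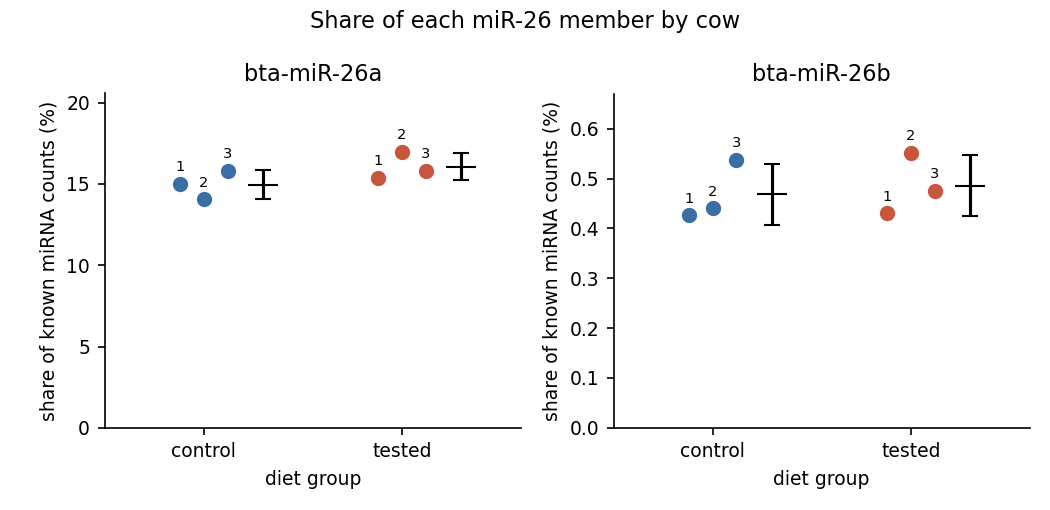
Share of bta-miR-26a (left) and bta-miR-26b (right) in the known miRNA counts of a library, in percent, by diet group. Points are cows, with the cow number above, and the bar beside each group is the mean ± SD of 3 cows. The points of the groups overlap for both miRNAs, with means of 15.0% and 16.1% on the left and 0.468% and 0.486% on the right.

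The lead of bta-miR-26a over the next miRNA was narrowest in control cow 2. There it had 1.16 times the counts of bta-let-7b, a member of the let-7 family that restrains growth and marks differentiated cells. In control cow 3 the ratio to bta-let-7b was 1.27, and in tested cows 1, 2 and 3 it was 1.48, 1.52 and 1.45. In control cow 1 the second miRNA was bta-miR-148a, a miRNA abundant in milk, which bta-miR-26a exceeded 1.37 times. Over the 6 libraries the mean shares of the first 3 miRNAs were 15.5%, 11.1% and 9.82%, and neither bta-let-7b nor bta-miR-148a was above bta-miR-26a in any library. Since bta-miR-26a is named as the leading miRNA, these values are a description and were not tested.

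The neighbours of bta-miR-26b in the order of mean share overlapped with it. It stood at rank 30 with a mean of 0.477%, ranging from 0.427% to 0.552%. Just above it were bta-miR-451, a miRNA of red blood cells, with shares from 0.169% to 1.73%, and bta-miR-320a, with 0.368% to 0.614%. Just below it were bta-let-7g, with 0.386% to 0.537%, and bta-miR-99b, with 0.332% to 0.484%. bta-miR-451 was above bta-miR-26b in 2 of the 6 libraries, bta-miR-320a in 4, and bta-let-7g and bta-miR-99b in 3 each, so that none of these neighbours kept its place in every cow.

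When the known miRNAs were grouped by their seed, bta-miR-26a and bta-miR-26b together did not form the most abundant group. Of 283 different seeds, GAGGTAG of let-7 held the highest summed share in each library, with 9 miRNAs and 19.8% to 26.1% of the known counts. The seed TCAAGTA came second in each library with its 2 miRNAs. Their summed share was 15.4%, 14.5% and 16.3% in control cows 1, 2 and 3 and 15.8%, 17.5% and 16.3% in tested cows 1, 2 and 3. Control cows averaged 15.4% ± 0.920 (SD, n = 3), tested cows averaged 16.5% ± 0.894 (SD, n = 3), and the groups overlapped. The seed GTAAACA of the miR-30 family stood at rank 3 by mean share, with 6 miRNAs and 11.9% to 13.8%. Within the let-7 seed the counts were spread over several miRNAs. Of the counts on the miR-26 seed in a library, bta-miR-26b had only 2.72% to 3.29%.

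**Figure D2:**
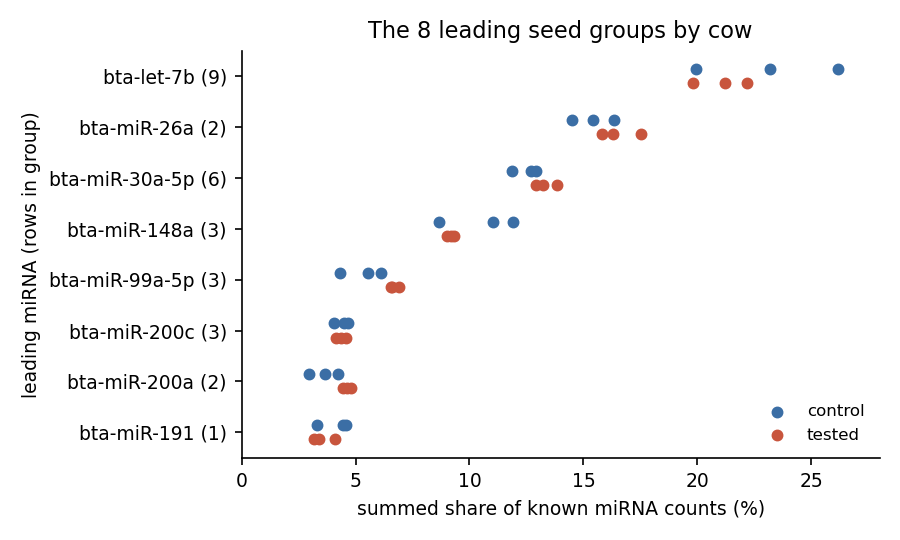
Summed share of the known miRNA counts (percent, horizontal axis) for the 8 leading seeds, each named by its most abundant miRNA with the number of miRNAs that have this seed in parentheses. Points are cows, with control above tested in each row. The bta-miR-26a seed lies between 14.5% and 17.5%, below the let-7 seed in every cow.

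The ratio between the members does not depend on the total counts of a library and lay between 29.4 and 35.7 in all cows. For each count of bta-miR-26b there were 35.2, 32.0 and 29.4 counts of bta-miR-26a in control cows 1, 2 and 3. In tested cows 1, 2 and 3 there were 35.7, 30.8 and 33.3. The ratio was highest in the first cow of either group and lowest in control cow 3, and the groups overlapped. The 95% intervals from Wilson limits on the share of bta-miR-26b were 28.8 to 30.0 in control cow 3 and 34.8 to 36.7 in tested cow 1. These limits cover counting error only. As group means the ratio was 32.2 ± 2.90 (SD, n = 3) and 33.3 ± 2.46 (SD, n = 3). On the log2 scale control cows averaged 5.004 ± 0.130 (SD, n = 3) and tested cows 5.05 ± 0.107 (SD, n = 3), a difference of 0.05 (two-sided exact permutation test, p = 0.7). The direction of this small difference turned without control cow 3 (-0.01) and without tested cow 1 (-0.004).

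**Figure D3:**
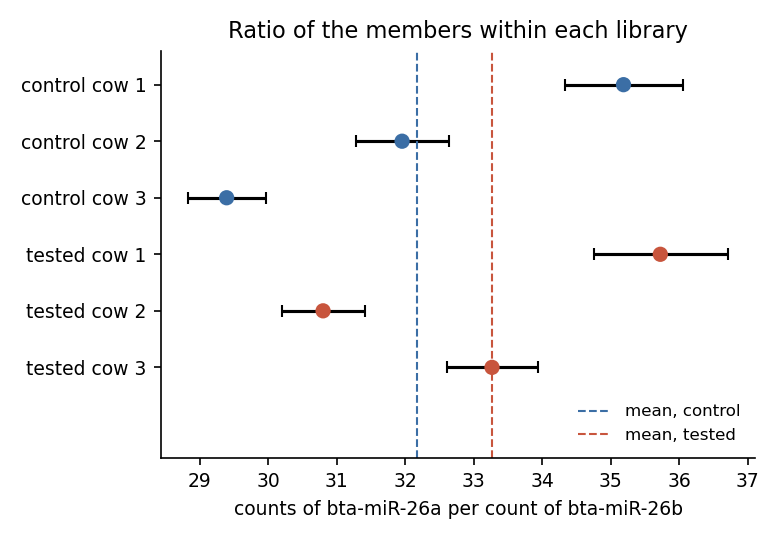
Counts of bta-miR-26a per count of bta-miR-26b (horizontal axis, not starting at 0) in each of the 6 libraries. Horizontal bars are 95% counting intervals and dashed lines the group means of 32.2 and 33.3. Control and tested cows are interleaved between 29.4 and 35.7.

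Red blood cell miRNAs differed between the same libraries. bta-miR-451, bta-miR-144 and bta-miR-486, all 3 of the fixed red cell list, together held 2.84%, 1.63% and 1.35% of the known counts in control cows 1, 2 and 3 and 5.96%, 1.08% and 0.862% in tested cows 1, 2 and 3. The first cow of either group was thus high in these miRNAs and also in the ratio of bta-miR-26a to bta-miR-26b. Their part in the ratio was not tested. For the other fixed lists the summed share ranged from 0.0196% to 0.0386% in control cows and 0.0124% to 0.0439% in tested cows for white blood cells (4 of 5 miRNAs measured). It was 0.107% to 0.159% and 0.113% to 0.202% for liver (3 of 3), 0.0133% to 0.0158% and 0.0152% to 0.0178% for muscle (5 of 5), and 0.00196% to 0.0111% and 0.00846% to 0.0330% for platelets and vessels (6 of 6). The epithelial list was the most abundant, with 7.74% to 9.28% and 8.98% to 9.64% (6 of 7). bta-miR-26a alone held more counts than any of these lists in every library. Of the muscle list, bta-miR-133a had 1 count in control cow 2 and was at 0 in the other libraries, bta-miR-133b had at most 2 counts, bta-miR-206 had 1 to 16, and bta-miR-499 had 142 to 299. bta-miR-1, also of this list, had 1, 1 and 17 counts in control cows 1, 2 and 3 and 58, 4 and 56 in tested cows 1, 2 and 3.

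The effect of the diets over all miRNAs was tested with edgeR (quasi-likelihood), after TMM scaling, which trims extreme miRNAs before it sets the factor of each library. The fit held the 623 miRNAs with a summed count of 10 or more. The call rule was an absolute log2 fold change above 1 together with an unadjusted p below 0.05. Of the 623 miRNAs 20 were called (3.21%), 13 of them higher (2.09%) and 7 lower (1.12%) in the tested group, and neither member was among them. With each cow left out, 8 to 21 were called higher and 2 to 11 lower. An unadjusted p below 0.05 was found for 29 miRNAs (4.65%) and an adjusted p below 0.05 for 1 (0.161%, 7 with DESeq2), again without the members. DESeq2 and limma also called 0 of the 2 members, and neither had an unadjusted p below 0.05 with any of the 3 tools.

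For bta-miR-26a the level in CPM (counts scaled to one common library total, here with TMM) was 139912, 136865 and 168375 in control cows 1, 2 and 3 and 146935, 172847 and 138925 in tested cows 1, 2 and 3. Control cow 3 and tested cow 2 were high, and the 4 other cows lay close together. The log2 fold change was 0.04 (standard error 0.116, 95% interval -0.21 to 0.29, unadjusted p of 0.716, adjusted p = 0.979 from edgeR with Benjamini-Hochberg adjustment). As a fold of tested over control this is 1.03, with an interval from 0.866 to 1.23. Among the 99 known miRNAs with at least 100 counts in every library, no other had a smaller standard error in this fit, and the median was 0.309. The standard error of bta-miR-26a was 0.0815 with library sizes alone and 0.281 with DESeq2, and without control cow 2 its 95% interval was -0.41 to 0.39 on the log2 scale.

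For bta-miR-26b the CPM values were 3976, 4283 and 5728 in control cows 1, 2 and 3 and 4113, 5612 and 4176 in tested cows 1, 2 and 3. The same control cow 3 and tested cow 2 were high. The log2 fold change was -0.01 (standard error 0.223, 95% interval -0.49 to 0.47, unadjusted p of 0.969, adjusted p = 0.994 from edgeR). The fold was 0.994, with an interval from 0.711 to 1.39, wider than that of bta-miR-26a. Without tested cow 1, the library highest in red cell miRNAs, the log2 fold change was 0.07 for either member. The median log2 fold change of all 623 miRNAs was 0.07, and the median absolute log2 fold change of the 99 abundant known miRNAs was 0.22. In CPM the groups overlapped for both members, where 10.8% of the 623 miRNAs had groups that did not overlap.

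**Figure D4:**
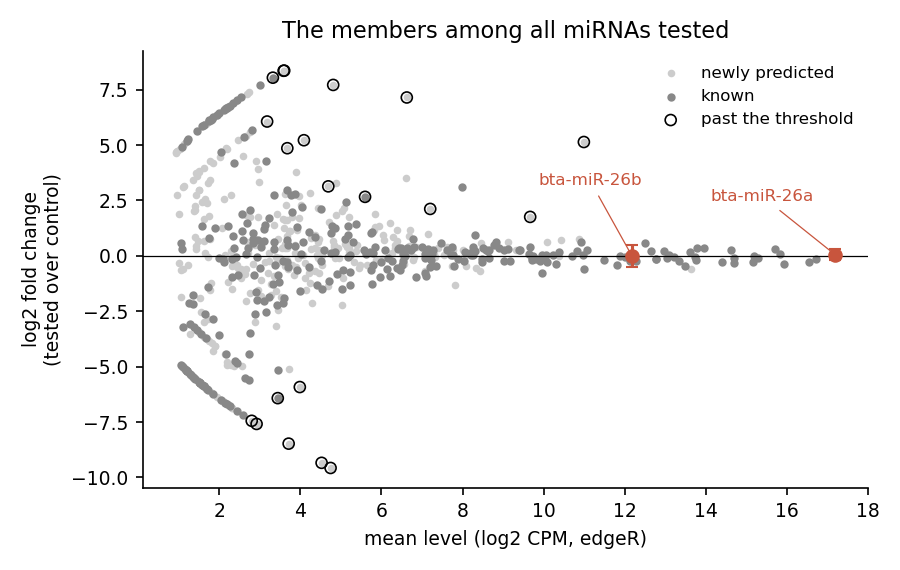
Log2 fold change of tested over control (vertical axis) against the mean level in log2 CPM (horizontal axis) for the 623 miRNAs tested with edgeR. Open circles mark the 20 miRNAs past the threshold, and the red points with 95% intervals are the members. Both members lie on the zero line, with log2 fold changes of 0.04 and -0.01.

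The direction of these small differences depended on the scaling. With the size factors of DESeq2 (RLE) the log2 fold change was -0.03 for bta-miR-26a and -0.08 for bta-miR-26b, and with library sizes alone it was 0.10 and 0.05. Relative to clean reads, the reads left after the authors' filtering, the direction also turned. In RPM, the deposited values that scale each count to the clean reads, bta-miR-26a had 16167, 22093 and 28476 in control cows 1, 2 and 3 and 13077, 26493 and 13661 in tested cows 1, 2 and 3. On average control cows had 22245 ± 6156 (SD, n = 3) and tested cows 17744 ± 7583 (SD, n = 3), a difference of -4501 (two-sided exact permutation test, p = 0.5). For bta-miR-26b they were 707 ± 255 (SD, n = 3) and 546 ± 273 (SD, n = 3), with the same p. On this scale tested cows 1 and 3 were the lowest of the 6 for both miRNAs. Counts on all known miRNAs moved the same way, with 10.8%, 15.7% and 18.0% of the clean reads in control cows 1, 2 and 3 and 8.50%, 15.6% and 8.63% in tested cows 1, 2 and 3. Their part in the difference was not tested.

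The share of bta-miR-26a was among the steadiest over the cows. Its coefficient of variation (CV, the SD over the mean) across the 6 libraries was 6.27%, which put it at place 4 of the 99 known miRNAs with at least 100 counts in every library, where the median was 19.6% and the range 3.99% to 95.9%. For bta-miR-26b the CV was 11.6%, at place 24. Counting error alone would give 0.194% for bta-miR-26a and 1.11% for bta-miR-26b. Among the 20 most abundant known miRNAs only bta-miR-200c and bta-miR-30d had a lower CV than bta-miR-26a, with 5.83% and 5.86%. bta-miR-486, the red cell miRNA, had the highest of these 20, with 80.0%. These places were computed for shares only. In RPM bta-miR-26a had a mean of 19994.5 and an SD of 6651 over the 6 libraries, so its steadiness depended on the scaling.

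**Figure D5:**
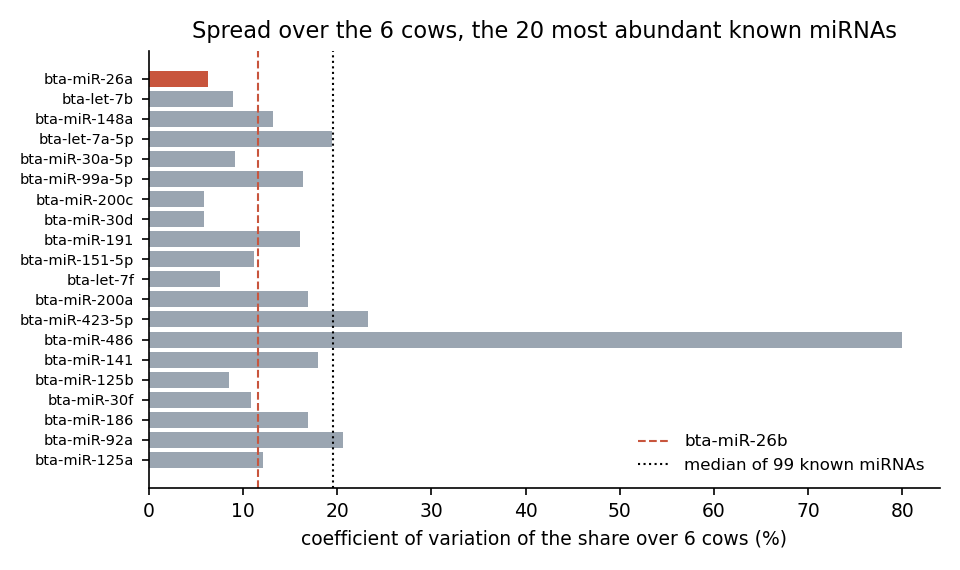
Coefficient of variation of the share of known miRNA counts over the 6 cows (percent, horizontal axis) for the 20 most abundant known miRNAs, in order of abundance from the top. The red bar is bta-miR-26a at 6.27%, the dashed line bta-miR-26b at 11.6% and the dotted line the median of 19.6% over 99 known miRNAs.

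The miRNAs with the steadiest ratio to bta-miR-26a were found from the SD, over the 6 libraries, of the log2 ratio of shares. They were sought among 98 other known miRNAs with at least 100 counts in every library. A share that is merely steady also gives a low SD here. Low values therefore do not show that a miRNA rose and fell with bta-miR-26a. Besides bta-miR-26b, with an SD of 0.110, the 5 lowest were bta-miR-27b (0.0909), bta-miR-30a-5p (0.0948), bta-let-7f (0.0995), bta-let-7c (0.0996) and bta-miR-103 (0.112), against a median of 0.305 and a highest value of 1.21. For bta-miR-26b the lowest besides bta-miR-26a were bta-miR-499 (0.0986), bta-let-7f (0.118) and bta-let-7c (0.136), with a median of 0.351. All points share the libraries and their totals, and the values are a description over 6 cows. The sequences of these 6 miRNAs, with the seed in capitals, show that none has the seed of miR-26.
bta-miR-27b: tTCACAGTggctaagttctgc
bta-miR-30a-5p: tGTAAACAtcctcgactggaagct
bta-let-7f: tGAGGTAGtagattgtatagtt
bta-let-7c: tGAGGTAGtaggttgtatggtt
bta-miR-103: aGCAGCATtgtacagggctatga
bta-miR-499: tTAAGACTtgcagtgatgttt
For each count of bta-miR-26a there were 0.348 to 0.418 counts of bta-miR-30a-5p and 0.0525 to 0.0609 of bta-miR-27b over the 6 libraries. bta-miR-499, a muscle miRNA, had 142 to 299 counts per library and 0.0269 to 0.0319 counts for each count of bta-miR-26b.

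Of 5 miRNAs fixed as reported in other species to repress EZH2, as miR-26a does, 4 were measured, and 0 of 4 were called (0 with an unadjusted p below 0.05 by edgeR), where 3.21% of all 623 miRNAs were called and 4.65% had such a p. bta-miR-98, which has the let-7 seed, had 520 to 914 counts per library and a CV of 6.41%, close to that of bta-miR-26a. bta-miR-101 had 76 to 257 counts and a log2 fold change of -0.40, which was 0.026 without control cow 1. bta-miR-214 had at most 8 counts in a library and a log2 fold change of 0.82, which was -0.28 without tested cow 1. bta-miR-124a, listed in 1 row together with bta-miR-124b, had 1, 3 and 25 counts in control cows 1, 2 and 3 and 3, 3 and 9 in tested cows 1, 2 and 3. Its log2 fold change was -0.97 and became 1.27 without control cow 3. The list had a median log2 fold change of -0.24, against 0.07 for all miRNAs tested. Together the 4 held 0.0438% to 0.0569% of the known counts, against 14.1% or more on bta-miR-26a.

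Among 11 miRNAs that are widely used as references in assays of circulating miRNA, 0 were called and 0 had an unadjusted p below 0.05 by edgeR, beside 3.21% and 4.65% of all 623. With so few miRNAs, a count of 0 is near these shares for either list. On the log2 scale bta-miR-425-5p was lowest (-0.45) and bta-miR-93 highest (0.37), with 3 above and 8 below 0 and a median of -0.26. With each cow left out bta-miR-425-5p ranged from -1.21 (without tested cow 1) to -0.13 (without tested cow 3) and bta-miR-93 from 0.086 (without control cow 1) to 0.61 (without control cow 3). The CV of their shares ran from 6.71% to 46.8%. By this CV of the share, none of the 11 was below bta-miR-26a, and 2, bta-miR-25 and bta-miR-103, were below bta-miR-26b. CVs on other scales were not compared.

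Of the cell type lists, that of platelets and vessels held 1 called miRNA of 6, bta-miR-199a-3p. In the other lists 0 were called, beside 3.21% of all 623 miRNAs. With so few miRNAs in a list, 1 call cannot be told from this share. bta-miR-141 of the epithelial list had an unadjusted p of 0.0346 by edgeR, as 4.65% of all 623 had one below 0.05. Its log2 fold change of 0.37 was below the threshold of the call rule. bta-miR-199a-3p had 17, 45 and 12 counts in control cows 1, 2 and 3 and 224, 36 and 122 in tested cows 1, 2 and 3, so the groups overlapped. Its log2 fold change was 2.66 (unadjusted p of 0.0312, adjusted p = 0.448 from edgeR), and it was not called without tested cow 1 (1.46), control cow 1 (2.52) or control cow 3 (2.32), with limma (2.21) or with the replicate number as a block (2.40). All 6 miRNAs of this list had a log2 fold change above 0 in the edgeR fit with TMM, with a median of 0.73 against 0.07 for all miRNAs tested. So had all 3 of the red cell list and all 3 of the liver list. Some of these signs rest on few counts. bta-miR-199b had 1 to 4 counts per library and bta-miR-214 at most 8, with standard errors of 2.05 and 2.43. bta-miR-214 was at -0.28 without tested cow 1. The part of these miRNAs in the values of the members was not tested.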

How the data were processed

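Small RNAs of serum EVs from 6 cows were sequenced, 1 library per cow. The authors removed adapters and low-quality reads, matched reads to the bovine genome (build ARS-UCD1.2 per the labels), took known miRNAs from miRBase and predicted others with miRDeep2. The submitters' processing notes name cutadapt 1.14 and Bowtie. The counting tool is not given in the sources used here. The authors deposited counts per miRNA without normalization. They also deposited per-million values under the label TPM, which are RPM values, since every value is a whole number of reads (100% within 0.01) over the clean reads of the library. Their columns of fold changes, test statistics and p-values, and their table of selected miRNAs, were not used.

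Shares are of all known (bta-) counts of a library. Groups were compared by two-sided exact permutation tests, 7 with their p given here and others run only for the alternatives. Over all 623 miRNAs with a summed count of at least 10 they were compared with edgeR 4.0.16 in R 4.3.3 (TMM, glmQLFit, glmQLFTest, ~ group), after a test on simulated data. Standard errors are the absolute log2 fold change over the square root of F. Alternatives were DESeq2 1.42.0, limma 3.58.1 on log2(CPM + 1), other factors, filters, rows and totals, a replicate block and each cow left out. Python 3.11.15, SciPy 1.17.1 and Matplotlib 3.10.9 did the rest. Named miRNAs are the members, their neighbours in mean share, those with the steadiest ratio to a member, and fixed lists. The extremes of each list are examples, while the others were chosen after their values were seen. Members and lists were chosen with earlier results of these data known. Nothing tells whether the libraries were prepared together, and the p-values measure the spread between libraries, with 1 library per cow.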

Additional observations from a re-analysis of the deposited data

How the results depend on the processing

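Neither member was called under any of the 17 alternatives to the edgeR fit, where the unadjusted p ranged from 0.239 to 0.990 for bta-miR-26a and from 0.458 to 0.982 for bta-miR-26b. The sign was not stable. For bta-miR-26a the log2 fold change was -0.026 with DESeq2 and with RLE factors, and -0.061 to 0.15 with each cow left out, below 0 when the cow left out was control 1, control 2 or tested 2. For bta-miR-26b it was 0.047 with library sizes alone, 0.020 with filterByExpr, 0.037 with known miRNAs only, and -0.18 to 0.18 with each cow left out, above 0 when it was control 3, tested 1 or tested 3. The cause was not tested. Reads recovered from the RPM values, 1 of the 17 alternatives and chosen after seeing the data, equalled the deposited counts (100%). That fit could therefore only be the same.

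The tested minus control difference in the share of bta-miR-26a was 0.640 to 1.53 percentage points with each cow left out. In RPM of clean reads it was -4501 for bta-miR-26a, -161 for bta-miR-26b and -4662 for both together. For bta-miR-26b it was -28.9 in CPM scaled by TMM and -0.0151 to 0.0526 percentage points with each cow left out, below 0 without control cow 1 or tested cow 2. For both together it was 0.625 to 1.58 points. The log2 ratio between the members differed by -0.014 to 0.12 with each cow left out. By Pearson correlation of log2(CPM + 1), 3 of the 5 miRNAs with the steadiest ratio to bta-miR-26a were also among the 5 most correlated, bta-miR-26b aside. With each cow left out the log2 fold change was -0.72 to 0.026 for bta-miR-101, above 0 without control cow 1, -0.28 to 1.42 for bta-miR-214, below 0 without tested cow 1, and -1.50 to 1.27 for the row of bta-miR-124a, above 0 without control cow 3.

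The 20 calls over all miRNAs, 13 higher and 7 lower, became 13 with filterByExpr (8 higher), 6 with known miRNAs only (5 higher and 1 lower) and 12 with the replicate number as a block (8 higher and 4 lower), and limma called 4 lower. With each cow left out there were 17 to 23 calls, 8 to 21 higher and 2 to 11 lower, with 21 higher and 2 lower without control cow 1 and 8 higher and 11 lower without control cow 3. An adjusted p below 0.05 was reached by 1 miRNA, by 7 with DESeq2, 3 with the block, 2 with no filter, 0 with library sizes alone, filterByExpr, known miRNAs only or robust estimation, and 0 to 4 with each cow left out. The cow numbers are not known to pair the cows. The deviations of same-numbered cows from their group means correlated at 0.432, 0.0293 and 0.141 over 99 miRNAs, and not every cow was most like the one with its own number. In the fit with the block the log2 fold changes were 0.04 for bta-miR-26a and -0.005 for bta-miR-26b.

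Counting error can be computed from the depth. How much of the remaining spread comes from the cows and how much from library preparation cannot be told apart with 1 library per cow.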

Other observations

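The 11 reference miRNAs for circulating miRNA offer another scale for the members, which was added after the data were seen. Together they held 13.6%, 14.2% and 13.9% of the known counts in control cows 1, 2 and 3 and 10.9%, 11.9% and 12.6% in tested cows 1, 2 and 3, with every tested cow below every control cow. In each library 95.6% to 97.1% of these counts lay on bta-let-7a-5p, bta-miR-191 and bta-miR-423-5p. For each count of the 11 there were 1.10, 0.992 and 1.13 counts of bta-miR-26a in control cows 1, 2 and 3 and 1.41, 1.43 and 1.25 in tested cows 1, 2 and 3. Control cows averaged 1.08 ± 0.0745 (SD, n = 3) and tested cows 1.36 ± 0.0959 (SD, n = 3), and all 3 tested cows lay above all 3 control cows (two-sided exact permutation test, p = 0.1, the smallest that 3 against 3 allow). On the log2 scale the difference was 0.34, against 0.04 from edgeR with TMM. Against single references, 0 of the 11 put all tested cows above all control cows for bta-miR-26a, and 1 of the 11, bta-let-7a-5p, did so for bta-miR-26b. For bta-miR-26b the ratio to the sum of the 11 was 0.0337 ± 0.00426 (SD, n = 3) and 0.0412 ± 0.00459 (SD, n = 3), with overlapping groups (two-sided exact permutation test, p = 0.2). The size of a difference in bta-miR-26a between these cows therefore changed with the miRNAs it was set against.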
